A study of Mus musculus with 68 samples.

Results

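Extraembryonic ectoderm (ExE) was compared with epiblast in mouse embryos at embryonic day 6.5, from the single FPKM table that holds both tissues. Its 12 libraries, of 68 in the series, were 6 of ExE and 6 of epiblast, with 2 of each genotype in each tissue, chosen by the tissue in the column name. The genotypes were wild type (WT), Ezhip mHet and Ezhip mKO, as the labels give them. Per the design text Ezhip was deleted in oocytes or embryos; the strain and the allele were not given in the sources used here. All were post-implantation embryos lysed directly for Smart-seq2, which amplifies whole polyadenylated transcripts from little input. The series asked how the histone mark H3K27me3 passes between generations, and Ezhip encodes an X-linked inhibitor of PRC2, the complex that writes the mark. The labels do not say whether libraries of a group came from separate embryos, so the p-values rest on a spread between libraries that may be technical. Libraries are named by genotype, tissue and the number in the column (1 and 2 in ExE, 3 and 4 in epiblast).

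At this stage the embryo is a cup of epiblast, the pluripotent tissue that gives rise to the whole body, joined to a cap of ExE, trophoblast that goes on to form part of the placenta. The tissues signal to each other: epiblast sends FGF4 and NODAL precursor, which maintain trophoblast stem cells, and ExE sends BMP4 and proteases that process NODAL. OCT4 (Pou5f1) and its partners hold the epiblast programme, while CDX2, EOMES, ELF5 and TFAP2C hold the trophoblast programme. The promoter of Elf5 is known to be methylated in the embryonic lineage and unmethylated in trophoblast. Many imprinted genes, expressed from the copy of 1 parent, act in trophoblast.

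The start-site windows of 5 genes at the centre of this contrast are shown because the genes stand at opposite ends of it: Elf5, Cdx2 and Zfp42 were higher in ExE, and Pou5f1 and Fgf5 in epiblast. Each window runs from 250 bases before to 50 bases after an annotated start in RefSeq on GRCm38.p6, on the gene's strand. Capitals mark matches to the octamer ATGCAAAT bound by POU factors such as OCT4, or to GCCNNNGGC, a form of the TFAP2 site, each searched on both strands; no match to one overlapped a match to the other in these windows. Elf5 has 2 annotated starts, at chr2:103411848-103412147 (+) and chr2:103423818-103424117 (+). Pou5f1 also has 2, of which the first is shown and the second lies at chr17:35508557-35508856 (+). The other windows shown are Cdx2 at chr5:147307200-147307499 (-), Zfp42 at chr8:43306960-43307259 (-), Pou5f1 at chr17:35505782-35506081 (+) and Fgf5 at chr5:98253934-98254233 (+).
Elf5, first start: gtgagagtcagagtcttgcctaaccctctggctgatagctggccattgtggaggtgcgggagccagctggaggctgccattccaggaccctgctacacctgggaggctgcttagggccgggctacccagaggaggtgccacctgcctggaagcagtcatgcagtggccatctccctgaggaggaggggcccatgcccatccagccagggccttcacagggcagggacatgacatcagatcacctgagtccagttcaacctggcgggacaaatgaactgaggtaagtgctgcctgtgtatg
Elf5, second start: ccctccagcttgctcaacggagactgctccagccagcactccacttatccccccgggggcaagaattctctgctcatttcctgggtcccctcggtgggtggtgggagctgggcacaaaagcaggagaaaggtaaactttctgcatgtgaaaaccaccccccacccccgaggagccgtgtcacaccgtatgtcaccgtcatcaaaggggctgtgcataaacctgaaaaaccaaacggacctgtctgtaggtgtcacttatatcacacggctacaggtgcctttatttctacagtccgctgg
Cdx2: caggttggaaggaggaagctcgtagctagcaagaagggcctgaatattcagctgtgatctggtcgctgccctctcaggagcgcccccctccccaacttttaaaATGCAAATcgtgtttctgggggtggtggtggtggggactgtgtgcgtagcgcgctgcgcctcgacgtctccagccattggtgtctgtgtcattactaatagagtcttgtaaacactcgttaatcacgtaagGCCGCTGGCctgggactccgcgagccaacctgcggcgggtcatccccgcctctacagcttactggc
Zfp42: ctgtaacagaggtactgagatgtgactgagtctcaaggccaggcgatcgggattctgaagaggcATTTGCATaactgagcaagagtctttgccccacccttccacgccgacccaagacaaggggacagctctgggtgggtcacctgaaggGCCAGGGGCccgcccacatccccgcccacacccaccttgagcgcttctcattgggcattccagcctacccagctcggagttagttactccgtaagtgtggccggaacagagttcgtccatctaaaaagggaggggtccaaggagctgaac
Pou5f1: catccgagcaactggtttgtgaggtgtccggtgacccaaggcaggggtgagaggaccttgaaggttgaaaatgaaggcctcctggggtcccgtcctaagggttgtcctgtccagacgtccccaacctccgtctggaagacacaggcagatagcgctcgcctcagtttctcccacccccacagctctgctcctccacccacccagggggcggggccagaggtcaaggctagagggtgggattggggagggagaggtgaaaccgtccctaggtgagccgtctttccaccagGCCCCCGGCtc
Fgf5: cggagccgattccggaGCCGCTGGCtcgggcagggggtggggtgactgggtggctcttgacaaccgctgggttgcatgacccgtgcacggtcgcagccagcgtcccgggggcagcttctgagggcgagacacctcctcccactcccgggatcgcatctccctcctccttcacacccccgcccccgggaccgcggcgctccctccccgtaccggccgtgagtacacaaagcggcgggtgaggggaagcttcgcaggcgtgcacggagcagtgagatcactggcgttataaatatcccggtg
The Elf5 windows hold 3 and 10 CG pairs, the sites of DNA methylation, and no match to either motif. The Cdx2 window holds 18 CG pairs, an octamer at position -147 and a TFAP2 form at position -16 from the start. The Zfp42 window holds 11 CG pairs, with an octamer at position -186 and a TFAP2 form at position -100. The Pou5f1 window shown holds 11 CG pairs and a TFAP2 form at position 39, and its second window 6 CG pairs and no match to either motif. The Fgf5 window holds 29 CG pairs and a TFAP2 form at position -234, and neither epiblast gene has an octamer there. Over the 10787 windows of the genes tested, the median was 21 CG pairs. The octamer stood in 1.30% of those windows, in 2.27% of the 706 windows of genes higher in ExE by over 1 on the log2 scale and in 1.78% of the 1126 windows of genes higher in epiblast by over 1. The TFAP2 form stood in 25.0%, 26.6% and 24.4% of the same sets. These are descriptions of letters, not of binding.

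Values are FPKM, fragments scaled by transcript length and library size, and differences are ExE minus epiblast on the log2(FPKM + 1) scale with the standard error of the fit, which understates the change of low genes. Values given as 3 numbers are the lowest, the median and the highest of the 6 libraries of a tissue. The test was limma's moderated test with genotype as a term, with Benjamini-Hochberg adjustment across the 11028 genes that reached 1 FPKM in 2 or more libraries, out of 23664 in the table. Genes that reached 1 FPKM in 1 tissue alone passed this filter through that tissue. In the list counts below, the filter thus favoured a higher level in that tissue for such genes. Depth is unknown, because no step worth 1 read could be found in the values. Between 8845 and 9783 genes stood at 1 FPKM or more in a library. The 45S ribosomal RNA precursor Rn45s took 0.341 to 11.6% of the summed FPKM, with the highest shares in mHet ExE 2 (11.6%) and mKO ExE 1 (8.11%). Ezhip, listed as AU022751, stood at 0.177 to 0.772 FPKM in the WT libraries, 0 to 0.212 in mHet and 0 to 0.630 in mKO. It was too low in all genotypes to check the labels. Y-linked transcripts were found in 1 library of each tissue in WT and mKO and in none of mHet, and the other 8 libraries were female by this measure.

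The tissue labels held in every library, and small amounts of the other tissue's transcripts varied between libraries. The summed level of 10 epiblast markers was 883 to 1227 FPKM in epiblast and 232 to 334 in ExE, where Utf1 and Dnmt3b held most of it. The 9 ExE markers found in the table summed to 296 to 439 FPKM in ExE and 10.8 to 66.6 in epiblast. The 15 genes with the largest difference towards ExE, named further on, stood in mKO epiblast 3 at a median of 13.0% of their ExE median, in mHet epiblast 4 at 4.03% and in the other 4 epiblast libraries at 0.360 to 0.710%. The 15 genes at the epiblast end stood in WT ExE 1 at a median of 9.78% of their epiblast median, in WT ExE 2 at 2.90% and in the other 4 ExE libraries at 0.123 to 1.22%. Markers of ectoplacental cone and giant cells, the trophoblast next to ExE, summed to 39.1 to 125 FPKM in ExE. Hand1 and Ascl2 held most of that sum. Tpbpa was listed at 0 in every library and Prl3d1 at 0 in all but WT ExE 2 (0.393 FPKM). Markers of visceral endoderm, the layer around both tissues, summed to 0.777 to 3.27 FPKM in 5 ExE libraries and to 30.1 in mKO ExE 2. Markers of primitive streak and mesoderm summed to 93.1 FPKM in WT epiblast 3, 42.5 in WT ExE 1 and at most 9.28 in the others. Markers of maternal decidua and blood stayed at or below 3.21 FPKM. The part of these cells in the results below was not tested except where values without a library are given.

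**Figure D1:**
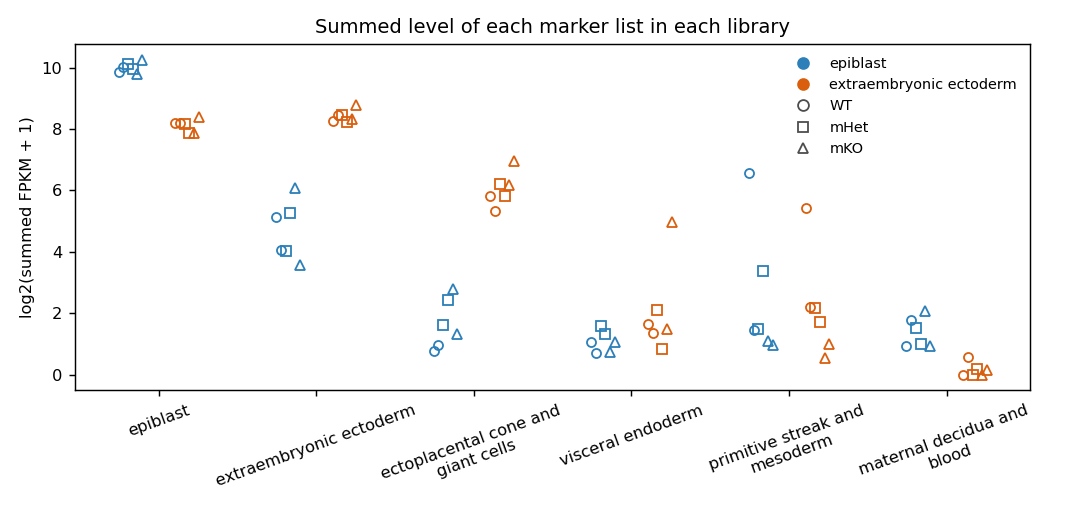
Summed FPKM of each marker list on a log2(FPKM + 1) axis, 1 point a library, coloured by tissue and shaped by genotype. Epiblast and ExE sums separate fully in both lists (883 to 1227 against 232 to 334 FPKM, and 10.8 to 66.6 against 296 to 439), and mKO ExE 2 stands alone at 30.1 FPKM in the visceral endoderm list.

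The tissues differed widely. Of 11028 genes tested, 1684 (15.3%) were higher and 2313 (21.0%) lower in ExE at an adjusted p under 0.05 (limma). By over 1 on the log2 scale, 746 were higher and 1085 lower, and by over 3 the counts were 86 and 79. The 6 libraries of each tissue did not overlap in 852 genes (7.73%) with ExE higher and 1405 (12.7%) with epiblast higher. The median difference over all genes was -0.11. Without mHet ExE 2 and mKO ExE 1 together, the libraries with the highest Rn45s share, 2220 were higher and 1963 lower, and the median became 0.03. Without WT ExE 1 and mKO epiblast 3 together, the libraries with most of the other tissue's transcripts, 3159 genes were called in all, against 3997. In bulk libraries, fewer cells of a type and less RNA per cell cannot be told apart.

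At the ExE end stood the imprinted growth locus, trophoblast regulators and junction genes. The noncoding RNA H19 stood at 1.78, 2.32 and 24.0 FPKM in epiblast and 169.8, 405 and 708 in ExE, a log2 difference of 5.87 ± 0.54 (adjusted p = 1.55e-06, limma). Mir675, whose precursor lies within H19 and whose reads cannot be told apart from it, differed by 5.01. Igf2, the fetal growth factor next to H19, stood at 0.0984, 0.200 and 1.95 in epiblast and 30.4, 33.7 and 103 in ExE (4.74 ± 0.32). For both genes every ExE library stood above every epiblast library, and the highest epiblast values were those of mKO epiblast 3 and mHet epiblast 4.

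Elf5, an ETS factor of trophoblast stem cells whose windows are shown above, stood at 0, 0.0860 and 18.4 FPKM in epiblast and 74.0, 121 and 144 in ExE (5.64 ± 0.62, adjusted p = 7.67e-06). Tfap2c, an AP-2 factor of trophoblast, stood at 0, 0.167 and 4.45 and 27.7, 41.0 and 57.2 (4.63 ± 0.37). Hand1, a bHLH factor needed for giant cells, stood at 0, 0.354 and 3.69 and 23.8, 49.5 and 109 (4.83 ± 0.29). The tissues overlapped in none of the 3, although mKO epiblast 3 held 18.4 FPKM of Elf5 where the other epiblast libraries had at most 5.02. Zfp42, the zinc finger gene Rex1 known from naive pluripotent cells, stood at 1.10, 3.01 and 12.8 in epiblast and 74.3, 98.5 and 125 in ExE (4.52 ± 0.31). Cited1, a transcriptional co-regulator needed for placental development, differed by 4.76 ± 0.34.

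Gjb5, a connexin of trophoblast gap junctions, stood at 34.1, 94.1 and 123 FPKM in ExE against 0.217, 0.720 and 8.91 in epiblast, a difference of 5.11 ± 0.46. Its epiblast range lay below its ExE range. Krt19, a keratin of simple epithelia, stood at 0.475, 1.07 and 6.38 in epiblast and 42.5, 48.3 and 95.4 in ExE (4.48). Further genes of the 15 were Trap1a, an X-linked tumour antigen gene (5.36), the X-linked Morc4 (5.17), Tinagl1, a secreted matrix protein (5.07), and Fgfbp1, an FGF-binding protein (4.91).

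At the epiblast end, Slc7a3, a transporter of cationic amino acids, stood at 107, 142 and 191 FPKM in epiblast and 0.973, 1.43 and 3.12 in ExE (-5.80 ± 0.23, adjusted p = 8.60e-09). Otx2, the homeobox factor of primed pluripotency and anterior fate, stood at 54.8, 90.3 and 117 and 0, 0.323 and 2.82 (-5.72 ± 0.24). Pou5f1, which encodes OCT4, stood at 94.8, 109.5 and 149.8 and 0.135, 1.09 and 18.3 (-5.47 ± 0.46). Its 18.3 FPKM in ExE was that of WT ExE 1, and the epiblast libraries all stood above it.

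Fgf5, a growth factor used as a marker of post-implantation epiblast, stood at 26.4, 55.1 and 77.8 FPKM in epiblast and 0, 0.161 and 5.65 in ExE (-5.11 ± 0.31). Tdgf1, the NODAL co-receptor Cripto, stood at 73.1, 109 and 165 and 0.248, 1.45 and 45.1 (-4.96 ± 0.55), and again WT ExE 1 held the highest ExE value. Gja1, the connexin of the epiblast, stood at 95.8, 104 and 132 and 0.112, 2.75 and 12.5 (-5.02 ± 0.38). In these 3 genes the lowest epiblast library stood above the highest ExE library, as the rule for naming them required. Of the connexin genes Gjb5 and Gja1, the first was thus higher in ExE and the second in epiblast.

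The remaining epiblast genes of the 15 were Car14, a carbonic anhydrase (-5.45), Uchl1, a ubiquitin hydrolase (-5.08), Fgf15, an FGF of the mouse embryo (-4.86), the surface glycoprotein Cd24a (-4.81), Crabp2, which binds retinoic acid (-4.76), Trh, the precursor of thyrotropin-releasing hormone (-4.64), Id3, an inhibitor of bHLH factors (-4.62), the tetraspanin Tspan6 (-4.52) and Gng3, a G protein subunit (-4.39). Trh was listed at 0 in 5 ExE libraries and at 1.57 FPKM in WT ExE 1, against 10.0, 36.2 and 55.3 in epiblast. All 30 genes kept their call in each of 23 alternative analyses of this comparison. Within mHet and within mKO all 30 were called, and in WT alone 29, the exception being Tdgf1 (adjusted p = 0.0666, limma). The 30 were chosen from these same libraries by size, threshold and lack of overlap. Both results were therefore largely set by the choice and are no separate support.

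**Figure D2:**
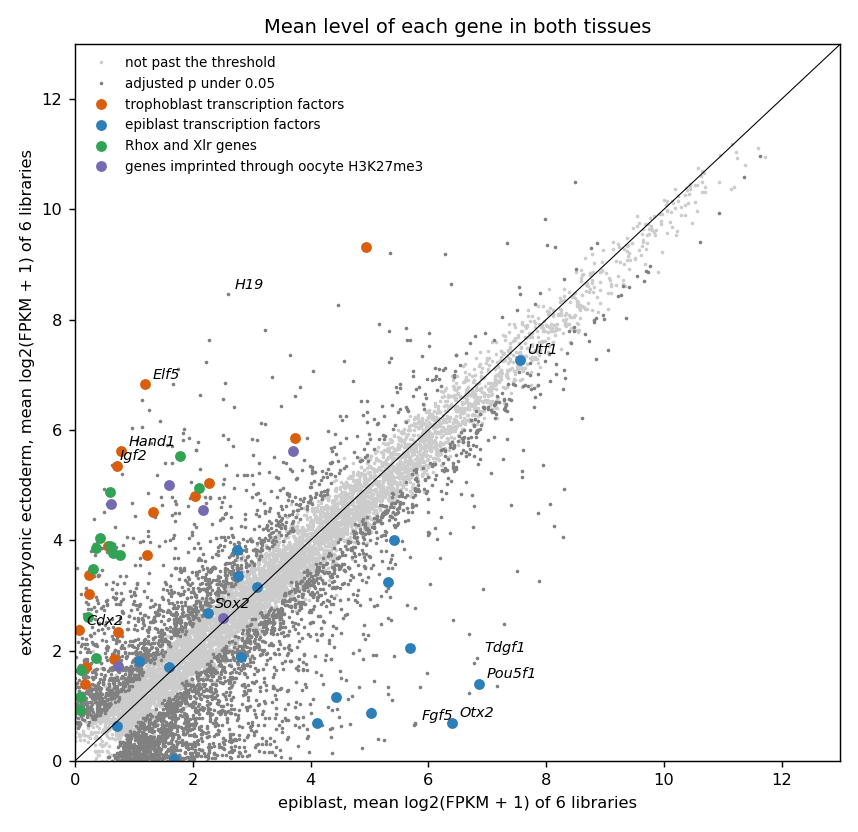
Mean log2(FPKM + 1) of 6 epiblast libraries (x axis) against 6 ExE libraries (y axis), 1 point a gene, with 4 gene lists coloured. Trophoblast factors and Rhox and Xlr genes lie above the diagonal, Pou5f1, Otx2, Fgf5 and Tdgf1 far below it, and Sox2 and Utf1 close to it.

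WT embryos alone gave 1310 genes (11.9%) higher and 1112 (10.1%) lower in ExE, from 2 libraries against 2. In these 4 libraries, Elf5 stood at 0.0295 and 0.114 FPKM in epiblast against 97.5 and 144 in ExE, and Pou5f1 at 94.8 and 149.8 against 18.3 and 2.36. Cdx2 was listed at 0 in both WT epiblast libraries and stood at 3.17 and 4.71 in ExE. The count rested on every library: it was 754 without WT epiblast 3, 720 without WT epiblast 4, 301 without WT ExE 1 and 0 without WT ExE 2, where the lone library of a tissue is assumed to vary like the others. Of the 1310 genes higher in WT ExE, 1163 (88.8%) had that sign in both mHet and mKO, against 3349 of all 11028 genes (30.4%). Of the 1112 lower genes 1088 (97.8%) did, against 5630 of all genes (51.1%). Called in both other genotypes were 401 and 672 of them. The WT contrast from a fit of 6 group means (tissue by genotype) gave 628 genes higher and 715 lower. The balance of directions in WT thus depended on the model.

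The transcription factors of each lineage behaved differently as groups. All 17 of 20 trophoblast factors that passed the filter were higher in ExE (100%, against 15.3% of all genes). Their median difference was 2.76 against -0.11 over all genes. Some of them, such as Cdx2, Tead4 and Esrrb, reached 1 FPKM in ExE alone. For these the filter itself favoured a higher ExE level. Tfap2a, Dlx3 and Creb3l2 did not pass it, with at most 1.17 FPKM in any library. Cdx2, the caudal factor of trophoblast stem cells, stood at 0, 0 and 0.270 FPKM in epiblast and 2.47, 4.63 and 5.45 in ExE (2.29 ± 0.17). It was listed at 0 in 4 epiblast libraries, and its ExE level lay far below that of Elf5. Eomes, a T-box factor of ExE that is also used in the primitive streak, stood at 6.16, 10.4 and 30.2 and 42.1, 57.7 and 86.7 (2.11 ± 0.33), so the epiblast was not devoid of it but did not reach the ExE range.

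Id2, an inhibitor of bHLH factors, reached 438, 696 and 849.9 FPKM in ExE against 5.40, 47.4 and 134 in epiblast (4.38 ± 0.58). Gata3, Klf5 and Sox21, further trophoblast regulators, differed by 3.33, 3.19 and 3.14. Tead4, the TEAD factor of early trophoblast, stood at 0, 0.0539 and 0.885 in epiblast and 3.82, 8.07 and 9.65 in ExE (2.78 ± 0.21). Esrrb, an orphan nuclear receptor of trophoblast stem cells and naive pluripotency, was low in both but without overlap, at 0.0367, 0.0841 and 0.230 and 1.16, 1.57 and 2.30 (1.24 ± 0.14). All 17 stayed higher without WT ExE 1 and mKO epiblast 3 together.

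Of 18 epiblast factors, 10 were lower in ExE (55.6%, against 21.0% of all genes) and 1 was higher (5.56%, against 15.3%). The other 7 did not pass the test, and the median was -1.17. Besides Otx2 and Pou5f1, the largest differences were those of Zscan10, a zinc finger partner of OCT4 (-4.15 ± 0.33), Foxh1, the DNA-binding partner of NODAL's SMADs (-3.64 ± 0.41), and Sall2 (-3.43 ± 0.19). Nanog stood at 12.2, 19.7 and 39.2 FPKM in epiblast and 0, 0.631 and 12.6 in ExE (-3.28 ± 0.45), and overlapped only through WT ExE 1, whose 12.6 FPKM lay above the lowest epiblast library. In WT alone the difference for Nanog was -2.12 ± 0.93 (adjusted p = 0.163).

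Sox2, which is needed in both tissues, stood at 1.54, 3.98 and 7.44 FPKM in epiblast and 1.98, 4.94 and 19.5 in ExE, a difference of 0.42 ± 0.38 (adjusted p = 0.41). Utf1, a chromatin factor of pluripotent cells, stood at 84.2, 199 and 331 and 97.4, 162 and 239.7 (-0.28 ± 0.27, adjusted p = 0.44). For both genes the tissues overlapped widely. Pou3f1, the POU factor OCT6 of primed epiblast, had a higher ExE median (10.9 against 6.21 FPKM) with overlap (1.07 ± 0.42, adjusted p = 0.0632). Sox3 was the 1 epiblast factor called higher in ExE (0.73 ± 0.26, adjusted p = 0.0439), and kept that call in 6 of 23 alternatives. Zic2, Tcf7l1 and Etv4 had differences of -0.09, 0.06 and 0.11 and did not pass.

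Among 14 genes tied to pluripotency in both embryonic and trophoblast settings, 5 were higher and 5 lower of 11 tested (median 0.42). Each share was 45.5%, against 15.3% and 21.0% of all genes. Tfcp2l1, a naive pluripotency factor, was higher in ExE beside Zfp42 (1.82 ± 0.17), and so were Klf2, Dppa2 and Dppa4. Dppa3, Dppa5a, Tdh, Lin28a and Lin28b were lower. Lin28b, an RNA-binding protein that blocks let-7, stood at 8.23, 9.67 and 13.5 FPKM in epiblast and 0.0528, 0.288 and 2.14 in ExE, while Lin28a stood at 31.8, 43.9 and 49.7 and 11.5, 23.9 and 33.6. Lin28a was therefore retained in ExE at a level that overlapped the epiblast, and Lin28b was not.

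**Figure D3:**
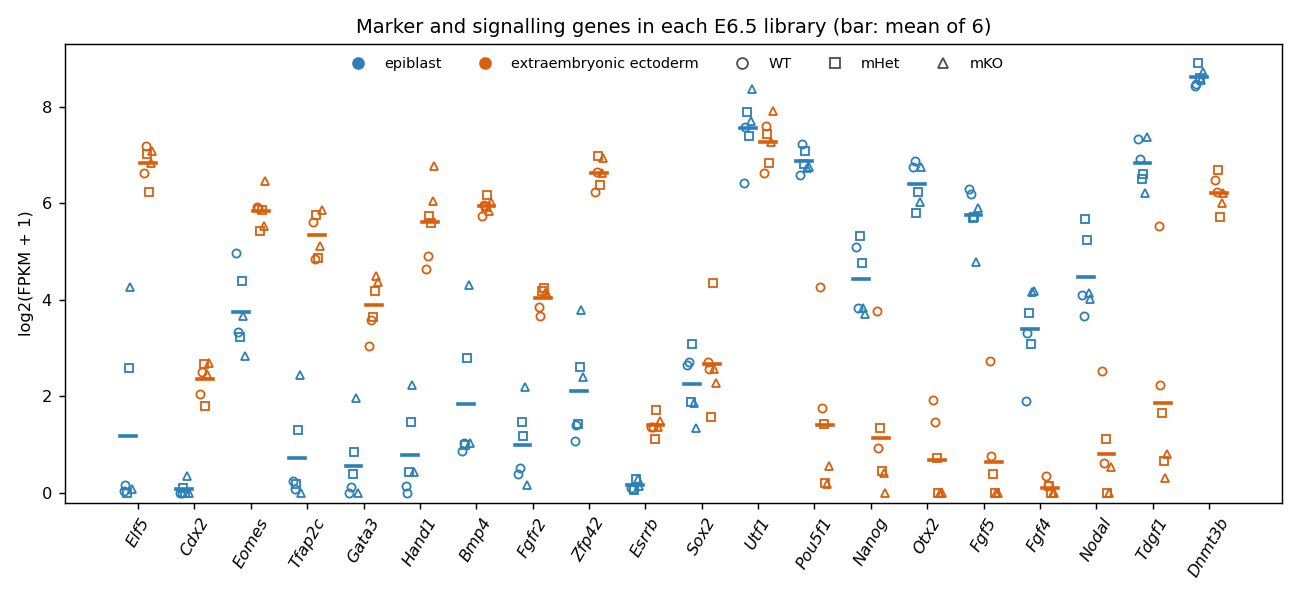
Level of 20 genes in each library as log2(FPKM + 1), 1 point a library with the mean of 6 as a bar, coloured by tissue and shaped by genotype. Elf5 to Esrrb lie higher in ExE, Sox2 and Utf1 overlap, and Pou5f1 to Dnmt3b lie higher in epiblast, with WT ExE 1 the highest ExE point in Pou5f1, Nanog and Tdgf1.

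Signalling genes lay on both sides of the contrast. The NODAL ligand stood at 11.7, 16.5 and 50.1 FPKM in epiblast and 0, 0.489 and 4.78 in ExE (-3.68 ± 0.41, adjusted p = 8.88e-06). Of 13 genes of NODAL and TGF-beta signalling tested, 7 were lower (53.8%, against 21.0% of all genes) and 3 higher (23.1%, against 15.3%) in ExE, with a median of -1.65. The lower genes were the ligands or co-factors Nodal, Gdf1, Gdf3 and Tdgf1 and the antagonists Lefty1, Lefty2 and Fst. Gdf1, whose product pairs with NODAL, stood at 5.49, 8.69 and 10.4 and 0.0364, 0.187 and 0.694 (-2.93 ± 0.18). It shares a transcript with Cers1, so its reads may not be its own.

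The higher genes of this pathway were the proteases that cut the NODAL precursor and 1 SMAD. Pcsk6, which encodes PACE4, stood at 0.741, 1.07 and 1.74 FPKM in epiblast and 7.30, 11.1 and 14.8 in ExE (2.46 ± 0.18), without overlap. Furin stood at 0.364, 0.613 and 1.02 and 0.818, 1.50 and 2.88 with overlap (0.63 ± 0.17). Smad3 differed by 1.48 ± 0.17, while Smad2 (-0.17), Acvr2a (0.11) and Acvr2b (-0.50) did not pass.

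BMP ligands were on the ExE side. Bmp4, the ExE signal to the proximal epiblast, stood at 0.828, 1.04 and 18.9 FPKM in epiblast and 52.5, 60.4 and 71.4 in ExE (4.11 ± 0.48, adjusted p = 1.25e-05). Bmp8b, which acts with BMP4 in the induction of germ cells, stood at 0.0783, 0.503 and 5.72 and 13.6, 24.5 and 35.8 (3.71 ± 0.37). In epiblast, Bmp4 reached 18.9 FPKM in mKO epiblast 3 and 5.95 in mHet epiblast 4, and at most 1.05 in the others. Of 17 BMP genes tested, 8 were higher (47.1%, against 15.3% of all genes) and 2 lower (11.8%, against 21.0%), with a median of 0.25. The lower count was 1 without any 1 of WT epiblast 3, WT ExE 2, mHet epiblast 4, mHet ExE 1, mKO epiblast 3, mKO epiblast 4 and mKO ExE 1. Of the receptors, Bmpr1a, Bmpr2 and Acvr1 did not pass (-0.02, -0.09 and -0.25).

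Targets of BMP signalling did not move as one. Smad6 and Smad7, inhibitory SMADs, were higher in ExE (1.73 ± 0.31 and 1.52 ± 0.27). Of the ID genes, Id2 was higher in ExE, Id3 was lower at 2.10, 8.59 and 37.6 FPKM against 117, 209 and 495 in epiblast, and Id1 overlapped at 13.2, 27.2 and 55.8 against 2.45, 16.6 and 185 (0.25 ± 0.64, adjusted p = 0.788). Id1 varied by genotype in epiblast, at 9.31 and 2.45 FPKM for WT, 79.0 and 185 for mHet, and 19.0 and 14.2 for mKO.

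FGF ligands were on the epiblast side, and the receptors Fgfr2 and Fgfr4 on the ExE side. Fgf4, the ligand that maintains trophoblast stem cells, stood at 2.75, 10.6 and 17.2 FPKM in epiblast and 0, 0.0508 and 0.268 in ExE (-3.29 ± 0.29). Fgfr2, the receptor of ExE, stood at 0.115, 0.844 and 3.56 and 11.7, 16.6 and 17.9 (3.05 ± 0.27), and Fgfr4 differed by 1.56 ± 0.17. Neither gene overlapped between the tissues. Fgfr1 stood in both at 5.54 and 6.99 FPKM in the median (0.42 ± 0.16, adjusted p = 0.0617).

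Of 20 FGF genes tested, 5 were higher (25.0%, against 15.3% of all genes) and 8 lower (40.0%, against 21.0%). The lower ones included Fgf4, Fgf5, Fgf8, Fgf13 and Fgf15. Feedback genes of the pathway were uneven. Etv5 and Dusp4 were lower in ExE (-2.06 ± 0.24 and -2.21 ± 0.29), whereas Dusp6 stood at 19.4, 37.7 and 44.2 FPKM in ExE against 26.9, 37.6 and 47.6 in epiblast (-0.10 ± 0.21) and Spry4 at 2.83, 4.58 and 5.16 against 1.79, 3.99 and 4.26 (0.22 ± 0.20). For Dusp6 and Spry4 the ranges overlapped and the test was not passed.

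Wnt ligands divided between the tissues. Wnt7b stood at 0, 0.129 and 3.01 FPKM in epiblast and 14.5, 26.2 and 29.8 in ExE (4.11 ± 0.31), and Wnt6 at 0, 0 and 0.321 and 4.32, 7.41 and 9.48 (2.92 ± 0.16). Wnt6 reached 1 FPKM in ExE alone, so the filter itself favoured a higher ExE level for it. Wnt3, the ligand that starts the primitive streak, was lower in ExE with overlap, at 0, 0.0418 and 1.95 against 0.632, 1.20 and 3.60 (-1.03 ± 0.29). Lef1, a nuclear effector, and Sfrp1, a secreted antagonist, were lower in ExE without overlap (-2.47 ± 0.20 and -1.63 ± 0.15). Of 23 Wnt genes 14 were tested, 2 higher (14.3%, near the 15.3% of all genes) and 7 lower (50.0%, against 21.0%), with a median of -0.43, and the lower count ran from 4 to 7 over the alternatives.

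**Figure D4:**
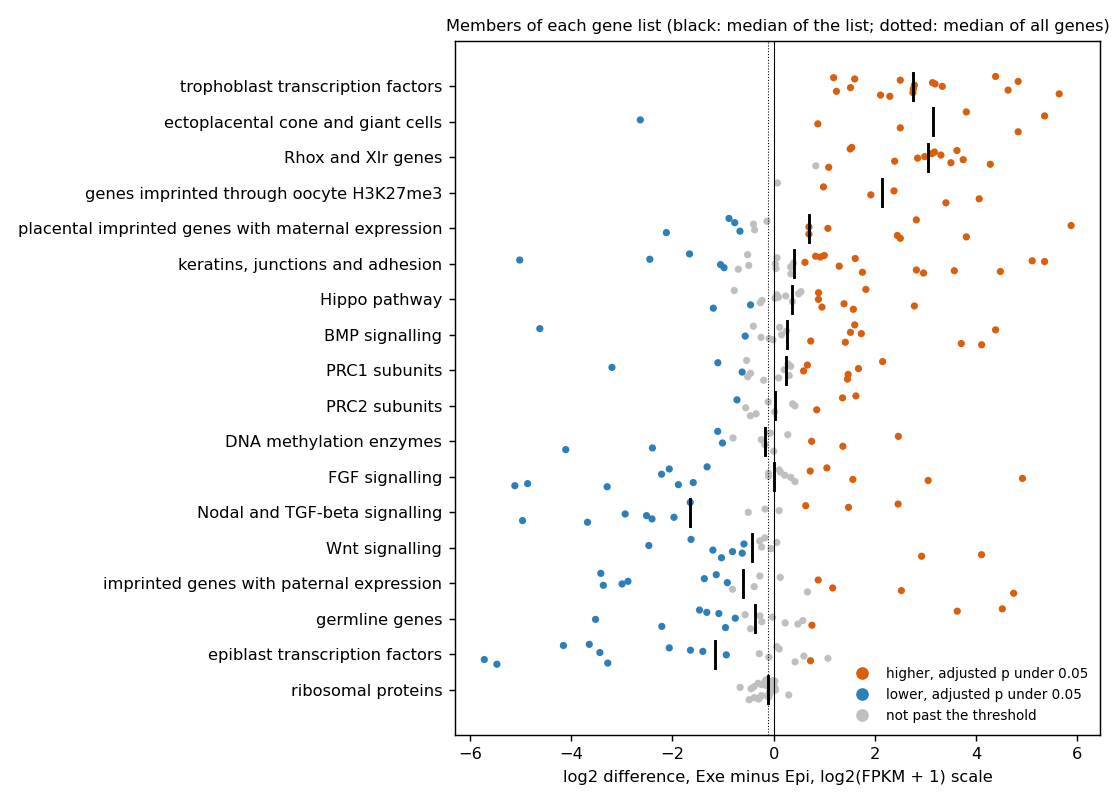
Log2 difference (ExE minus epiblast) of each tested member of 18 gene lists, 1 point a gene, with the median of the list as a black bar and the median of all genes (-0.11) dotted. The trophoblast factors lie wholly to the right (median 2.76), the NODAL and epiblast lists to the left (medians -1.65 and -1.17), and the ribosomal proteins at -0.11.

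Imprinted genes that depend on H3K27me3 set in the oocyte, the mark the series addressed, lay on the ExE side. Of 6 such genes, 5 were higher in ExE (83.3%, against 15.3% of all genes) and Xist was not (median 2.15). Xist stood at 0.169 to 0.661 FPKM in male libraries and 6.34 to 32.5 in female ones, with both sexes in each tissue. The spread in its test was thus in part that between sexes. Sfmbt2, a Polycomb-related gene needed for trophoblast, stood at 0.0605, 0.127 and 4.11 FPKM in epiblast and 14.6, 26.0 and 32.3 in ExE (4.06 ± 0.34). Gab1, a signalling adaptor, stood at 0.616, 1.55 and 8.76 and 16.6, 33.7 and 48.1 (3.40 ± 0.28). Slc38a4, an amino acid transporter, stood at 7.25, 10.3 and 31.2 and 23.5, 51.6 and 72.3 (1.92 ± 0.30).

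The ExE values of Sfmbt2 and Gab1 all lay above those of epiblast, and those of Slc38a4 overlapped them. Jade1, listed as Phf17, differed by 2.38 ± 0.33 and Smoc1 by 0.98 ± 0.20. In the separate genotypes, Sfmbt2 differed by 4.70 ± 0.25 in WT, 4.00 ± 0.58 in mHet and 3.47 ± 0.58 in mKO. Gab1 differed by 3.68 ± 0.21, 3.63 ± 0.50 and 2.90 ± 0.50, and Slc38a4 by 2.38 ± 0.16, 1.77 ± 0.55 and 1.61 ± 0.55. The WT errors came from a fit of the WT libraries alone, and those of mHet and mKO from the fit of group means. The size of the WT errors is therefore not comparable with that of the others. With all libraries, no gene passed the interaction test given further on, so no change of these differences between genotypes is claimed. In mKO epiblast 3, the library with the highest level of ExE genes, Sfmbt2 stood at 4.11 FPKM, against at most 0.645 in the other epiblast libraries. The values do not separate the parental copies.

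Placental genes expressed from the maternal copy were mixed, with 8 higher (53.3%, against 15.3% of all genes) and 4 lower (26.7%, against 21.0%) of 15 tested. Besides H19, the higher genes included Phlda2, a brake on placental growth, at 10.5, 21.0 and 46.8 FPKM in epiblast and 235, 289 and 442 in ExE (3.81 ± 0.30). Cdkn1c, a cyclin-dependent kinase inhibitor, stood at 2.23, 3.91 and 5.40 and 16.2, 25.0 and 31.3 (2.44 ± 0.18). Ascl2, a bHLH factor of the ectoplacental cone, and Pon2, a paraoxonase, differed by 2.50 ± 0.34 and 2.82 ± 0.31. Cd81, a tetraspanin gene of the Kcnq1 domain that also holds Phlda2, Cdkn1c and Ascl2, went the other way, at 65.1, 68.4 and 80.6 in epiblast and 8.46, 18.1 and 24.4 in ExE (-2.12 ± 0.26).

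Of 16 genes expressed from the paternal copy, 4 were higher (25.0%, against 15.3% of all genes) and 7 lower (43.8%, against 21.0%) in ExE. Igf2 and Peg10, a retrotransposon-derived gene needed for the placenta, were among the higher ones, Peg10 at 0.0401, 0.0777 and 0.772 FPKM in epiblast and 3.69, 5.59 and 10.0 in ExE (2.52 ± 0.21). The lower ones were led by Snurf and Snrpn, which share 1 transcript and differed by -3.41 ± 0.38 and -3.36 ± 0.38, by Ndn of the same domain (-2.99 ± 0.22) and by Nnat (-2.88 ± 0.24). None of these overlapped between the tissues. Mest, at 23.0, 57.7 and 92.4 FPKM in ExE and 60.5, 107 and 130.2 in epiblast, did not pass the test (-0.81 ± 0.33, adjusted p = 0.0691).

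**Figure D5:**
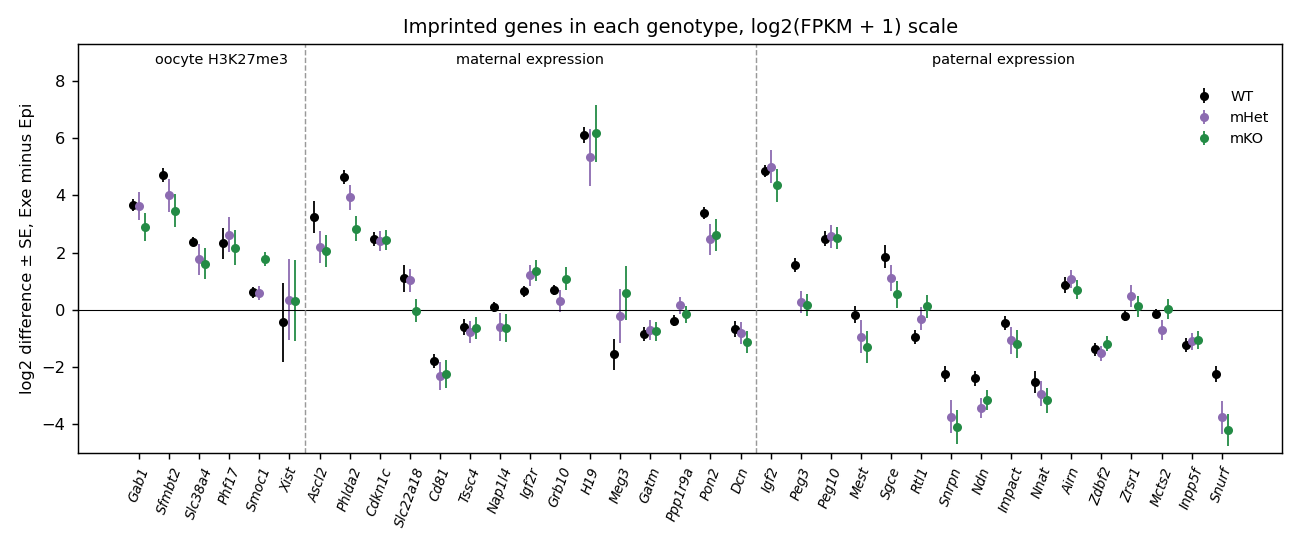
Log2 difference (ExE minus epiblast) of each tested imprinted gene in WT, mHet and mKO, points with SE bars, in the order H3K27me3-dependent, maternally and paternally expressed. The WT bars come from a fit of the WT libraries alone, and the mHet and mKO bars from the fit of group means. Bar lengths are therefore not comparable between WT and the other genotypes. H19, Igf2, Phlda2 and Sfmbt2 stand far above 0 and Snrpn, Snurf, Ndn and Nnat far below in all 3 genotypes.

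X-linked gene clusters with germline and placental expression were high in ExE. Of 14 Rhox and Xlr genes and neighbours tested, 13 were higher (92.9%, against 15.3% of all genes) and none lower (against 21.0%), with a median of 3.05. Rhox2a was the 1 that did not pass (0.83 ± 0.33, adjusted p = 0.0655). Rhox3a, Rhox10, Rhox12, Rhox13 and Magea4 stayed below 1 FPKM in every library and were not tested. Some of those tested, such as Rhox9, reached 1 FPKM in ExE alone, so the filter itself favoured a higher ExE level. Rhox9, a homeobox gene, was listed at 0 in 4 epiblast libraries, with 0, 0 and 0.854 FPKM, and stood at 3.60, 5.42 and 6.33 in ExE (2.39 ± 0.19). Xlr3a stood at 0.508, 2.67 and 7.82 and 18.0, 55.2 and 75.5 (3.74 ± 0.41) and Rhox4b at 0, 0.0373 and 3.07 and 20.2, 28.1 and 38.3 (4.28 ± 0.35). Members of these families are near copies of each other, so the counting may have split reads between them. Among all 425 X-linked genes tested, 94 (22.1%) were higher and 141 (33.2%) lower, against 1564 (15.0%) and 2116 (20.3%) of 10411 autosomal genes. Without Xist and the Rhox and Xlr genes, 74 of 402 (18.4%) were higher and 141 (35.1%) lower.

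Other germline genes lay on both sides, with 3 higher (Asz1, Tex19.1 and Zfp42) and 7 lower of 18 tested (median -0.36). The higher share, 16.7%, was near the 15.3% of all genes, and the lower share was 38.9% against 21.0%. Without mKO ExE 1, 5 were higher. Sycp3, a protein of the meiotic chromosome axis, stood at 24.6, 41.6 and 71.3 FPKM in epiblast and 1.67, 2.96 and 3.38 in ExE (-3.52 ± 0.22). Mael, a piRNA pathway gene, stood at 2.46, 3.71 and 6.91 and 0, 0 and 0.199 (-2.21 ± 0.18). Tex19.1, which is expressed in germ cells and placenta, was higher in ExE at 55.9, 130.3 and 313 against 2.38, 8.28 and 33.5 (3.63 ± 0.55). All 3 were without overlap.

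Among 13 genes that place, read or remove DNA methylation, 3 were higher (23.1%, against 15.3% of all genes), 4 lower (30.8%, against 21.0%) and 6 did not pass. Dnmt3b, a de novo methyltransferase, stood at 345, 380.2 and 481 FPKM in epiblast and 51.2, 73.9 and 102 in ExE (-2.40 ± 0.20). Dnmt3a, the other de novo enzyme, stood at 28.3, 41.0 and 49.9 and 0.375, 0.661 and 4.54 (-4.11 ± 0.35). Neither overlapped, and ExE kept a Dnmt3b median of 73.9 FPKM where its Dnmt3a median was 0.661.

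Their co-factor Dnmt3l was higher in ExE with overlap, at 4.91, 18.2 and 27.3 FPKM against 3.37, 5.18 and 12.3 (1.37 ± 0.31). Mbd2, which binds methylated DNA, stood at 0, 0.325 and 0.711 in epiblast and 3.44, 6.22 and 12.4 in ExE (2.46 ± 0.25). It reached 1 FPKM in ExE alone, so the filter itself favoured a higher ExE level for it. The maintenance enzyme Dnmt1 stood at 9.14, 11.1 and 13.5 and 8.17, 11.3 and 12.7 (-0.00 ± 0.15) and did not pass. Tet1, which oxidises 5-methylcytosine, was lower in ExE (-1.01 ± 0.17) and Tet2 higher but near 1 FPKM (0.75 ± 0.13).

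Of the PRC2 core, Ezh2 and Eed did not pass the test and Suz12 was higher in ExE. Ezh2, the methyltransferase, stood at 32.1, 41.0 and 47.3 FPKM in epiblast and 22.6, 34.7 and 37.1 in ExE (-0.35 ± 0.18, adjusted p = 0.162) and Eed at 38.5, 52.8 and 61.6 and 27.9, 56.2 and 71.9 (0.02 ± 0.22). Suz12 overlapped between the tissues (0.85 ± 0.21). Of the accessory subunits, Phf19 stood at 0.0407, 0.139 and 0.238 and 1.20, 1.87 and 3.28 (1.36 ± 0.17) and Epop, listed as E130012A19Rik, at 0.765, 1.90 and 3.17 and 3.86, 7.83 and 14.1 (1.62 ± 0.21), both without overlap. Mtf2 was lower (-0.72 ± 0.27, adjusted p = 0.0472) and kept its call in 8 of 23 alternatives. In all, 3 of 11 PRC2 genes tested were higher (27.3%, against 15.3% of all genes) and 1 lower (9.09%, against 21.0%). Phf19 reached 1 FPKM in ExE alone, so the filter itself favoured a higher ExE level for it. The lower count was 3 without mHet ExE 1, and 0 without any 1 of WT epiblast 4, WT ExE 1, mHet epiblast 3, mHet epiblast 4, mHet ExE 2, mKO epiblast 3, mKO epiblast 4 and mKO ExE 2.

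PRC1, which ubiquitinates histone H2A, had 6 genes higher (33.3%, against 15.3% of all genes) and 3 lower (16.7%, against 21.0%) of 18 tested, with 5 lower without mHet ExE 1. Phc1, a polyhomeotic subunit, stood at 26.2, 34.9 and 38.4 FPKM in epiblast and 1.82, 2.78 and 4.30 in ExE (-3.19 ± 0.20). Scmh1, a Polycomb protein with a SAM domain like that of Phc1, stood at 0.698, 1.16 and 3.15 and 8.95, 9.54 and 11.0 (2.15 ± 0.20). Bmi1 and Cbx8 were higher in ExE (1.46 ± 0.19 and 1.67 ± 0.20) and Kdm2b, a subunit that binds unmethylated CG pairs, was lower (-1.10 ± 0.20). These 5 genes had no overlap between the tissues.

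Epithelial and cytoskeletal genes divided between the tissues. Of 27 keratin, junction and adhesion genes tested, 13 were higher (48.1%, against 15.3% of all genes) and 5 lower (18.5%, against 21.0%). The keratins Krt8 and Krt18, which pair into filaments, stood at 71.4, 97.4 and 211 and 134, 217 and 324 FPKM in ExE against 8.18, 11.8 and 21.5 and 38.0, 64.0 and 92.7 in epiblast (2.96 ± 0.27 and 1.75 ± 0.24). The tight junction claudins Cldn3 and Cldn4 were higher (3.57 ± 0.34 and 2.82 ± 0.23), whereas E-cadherin, Cdh1, stood at 24.7, 40.7 and 44.3 in epiblast and 40.2, 46.2 and 55.1 in ExE (0.33 ± 0.19, adjusted p = 0.191). Vim, the filament protein vimentin, was on the epiblast side at 4.67, 5.19 and 7.14 against 0, 0.162 and 0.902 (-2.45 ± 0.18).

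Hippo pathway factors split among the TEADs. Of 19 genes tested, 7 were higher (36.8%, against 15.3% of all genes) and 2 lower (10.5%, against 21.0%). Tead4, Tead1 and Tead3 were higher in ExE (2.78, 1.57 and 0.95) and Tead2 lower (-1.19 ± 0.21), at 32.5, 46.2 and 51.0 FPKM in epiblast and 12.6, 17.9 and 26.4 in ExE. The co-activator Wwtr1 (TAZ) was higher (1.39 ± 0.22) and its relative Yap1 lower by a small amount (-0.46 ± 0.16, adjusted p = 0.039), a call that held in 10 of 23 alternatives.

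Cell cycle and metabolic genes held single large differences. Ccnd1, cyclin D1, stood at 14.7, 21.3 and 23.7 FPKM in epiblast and 0.885, 1.15 and 2.71 in ExE (-3.21 ± 0.19). The inhibitor Cdkn2c was listed at 0 in all 6 epiblast libraries and stood at 1.05, 1.18 and 1.74 in ExE. The filter itself thus favoured a higher ExE level for Cdkn2c. Cyclins and inhibitors as a list had 4 higher and 5 lower of 22 (18.2% and 22.7%), near the 15.3% and 21.0% of all genes. The higher count was 7 without mHet ExE 2, and the lower count 3 without any 1 of WT epiblast 3, WT ExE 2, mHet epiblast 3, mHet ExE 2, mKO epiblast 3 and mKO ExE 1. Glycolysis genes had 2 higher and 2 lower of 21 (9.52% each), with 5 lower without mHet ExE 1 and otherwise 1 or 2 lower when a library was left out. Ribosomal protein genes had 0 called of 30, and 2 lower without mHet ExE 1. In glycolysis, Pfkp, a phosphofructokinase, was higher (2.24 ± 0.36) and Ldhb, a lactate dehydrogenase subunit, lower in ExE (-2.51 ± 0.28).

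Fabp3, which binds fatty acids, reached 434, 584 and 736 FPKM in ExE against 16.3, 34.2 and 123 in epiblast (3.87 ± 0.35), and Slc27a2, a fatty acid transport protein, was on the epiblast side at 3.99, 4.71 and 5.66 against 0, 0.199 and 0.431 (-2.29 ± 0.14). Of 20 transporters and carriers, 6 were higher (30.0%, against 15.3% of all genes) and 5 lower (25.0%, against 21.0%). Of 17 p53 targets and apoptosis genes, 1 was higher (5.88%, against 15.3% of all genes) and 5 were lower (29.4%, against 21.0%). But the lower count was 2 without mKO epiblast 4 and 3 without WT epiblast 4 or mKO ExE 1. The higher count was 2 without mHet ExE 2. Perp, a desmosomal p53 target, stood at 1.26, 2.32 and 11.9 in epiblast and 22.1, 59.9 and 84.0 in ExE (3.59 ± 0.47), and Pmaip1, the death gene Noxa, at 20.2, 35.2 and 40.5 and 1.16, 2.83 and 6.19 (-3.14 ± 0.29). Of 19 extracellular proteases and inhibitors, 7 were higher and 7 lower (36.8% each, against 15.3% and 21.0% of all genes). The serine protease Htra1 was on the ExE side (3.87 ± 0.47) and the matrix metalloproteinases Mmp2 and Mmp14 on the epiblast side (-2.30 ± 0.27 and -1.68 ± 0.19).

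Among genes of neighbouring tissues, streak and visceral endoderm markers were high in single libraries. Of the ectoplacental cone and giant cell markers, Hand1 and Ascl2 were higher in all of ExE, and most others were near 0. In the primitive streak list, Mixl1, a homeobox gene of the streak, stood at 80.5 FPKM in WT epiblast 3 and 19.1 in WT ExE 1 and had medians of 1.24 in epiblast and 0.907 in ExE (-0.77 ± 0.71). The visceral endoderm list had 14 of 29 genes tested, 4 higher and 2 lower in ExE, or 28.6% and 14.3% against 15.3% and 21.0% of all genes. Without mKO ExE 2 it had 10 tested, 4 higher and 3 lower. The higher count was 2 without mKO epiblast 3 or mKO epiblast 4, and 7 without mHet ExE 2 and mKO ExE 1 together. The lower count was 1 without WT epiblast 3, WT ExE 2, mHet epiblast 4 or mKO epiblast 4. The apolipoprotein gene Apoc2 stood at 71.1 FPKM in mKO ExE 2 against an ExE median of 2.13 (1.77 ± 0.65, adjusted p = 0.0468). Its call held in 12 of the 22 alternatives that tested it. Of 24 ectoplacental cone and giant cell genes, 6 were tested and the others stayed below 1 FPKM in every library. Higher were 5 (83.3%, against 15.3% of all genes), Hand1, Ascl2, Phlda2 and Mmp9 among them. Plac8 was lower (-2.63 ± 0.26), or 16.7% against 21.0%. The 6 markers of that tissue summed to 39.1 to 125 FPKM in ExE and to at most 5.92 in epiblast. Hand1 and Ascl2, also counted as trophoblast factors, held most of the ExE sum, while Tpbpa, Prl3d1 and Prl2c2 reached at most 0.393 FPKM. Of 20 decidua and blood genes, 4 were tested, Cd68 higher and Dcn and Cd34 lower, with 1 lower without WT epiblast 4 or mKO epiblast 3. These were 25.0% and 50.0% of the 4, against 15.3% and 21.0% of all genes. Dcn was listed at 0 in all 6 ExE libraries and stood at 0.233, 0.774 and 2.61 in epiblast. Mmp9 reached 1 FPKM in ExE alone and Dcn in epiblast alone. For both, the filter itself favoured the tissue where they were higher.

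Genes nearly restricted to a tissue were found at both ends, and were singled out after their values were seen. In ExE 7 genes stood at 5 FPKM or more in all 6 libraries and below 1 in every epiblast library, and in epiblast 20 genes did the reverse. Irx3, an Iroquois homeobox gene, stood at 0, 0.211 and 0.775 FPKM in epiblast and 5.81, 10.5 and 32.4 in ExE (3.39 ± 0.30). Crmp1, a collapsin response mediator better known from neurons, stood at 14.2, 19.1 and 32.5 in epiblast and 0.0475, 0.108 and 0.159 in ExE (-4.22 ± 0.19). Ina, a neuronal intermediate filament gene, and Tubb4a, a tubulin, were also of the epiblast set (-3.16 ± 0.15 and -3.52 ± 0.19).

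The contrast within each Ezhip genotype gave 571 genes (5.18%) higher and 1071 (9.71%) lower in mHet and 687 (6.23%) higher and 1115 (10.1%) lower in mKO. In the same fit of 6 group means, the WT contrast gave 628 higher and 715 lower. The mHet and mKO counts depended on single libraries. The mHet count of 1642 became 828 without mHet epiblast 3 and 3848 without mHet ExE 1, and the mKO count of 1802 became 951 without mKO epiblast 4, 1045 without mKO ExE 1, 2833 without mHet ExE 1 and 2829 without mHet ExE 2. Without mHet ExE 1 or mHet ExE 2 the mKO libraries were all kept, while the shared estimate of the spread and the genes tested (10950 and 10941 of 11028) changed. The balance of directions in mHet also turned on a library: it was 743 higher and 735 lower without mHet ExE 2 (median difference 0.11, against -0.21 with it) and 669 higher and 3179 lower without mHet ExE 1.

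Whether the tissue difference itself differed by genotype was tested by an interaction, and no gene (0.0%) passed for mKO against WT or for mHet against WT (limma, lowest adjusted p = 0.760 and 0.294). At an unadjusted p under 0.05 there were 376 and 198 of 11028 genes. Both are smaller shares than the 0.05 that the threshold alone would give without any difference. Without mKO ExE 1 the first count was 5, without mHet ExE 1 and without mHet ExE 2 it was 1 each, and without mHet ExE 1 the second was 576, of which 562 were lower. The second count was also 1 without mKO epiblast 3 and 1 without mKO epiblast 4.

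The genes with the smallest p are given as values. Casc4 stood at 7.90 and 6.94 FPKM in the WT epiblast libraries, 0.700 and 1.27 in those of mHet and 0.829 and 0.921 in those of mKO, against 0.578 to 1.01 in ExE. Its tissue difference was 2.14 ± 0.36 less negative in mKO than in WT (adjusted p = 0.760), and it was less negative than in WT in mHet too (adjusted p = 0.294). Slc40a1, the iron exporter ferroportin, stood at 11.0 and 13.8 FPKM in WT ExE, 11.2 and 4.80 in mHet ExE, and 1.56 and 2.16 in mKO ExE (difference of differences -3.20 ± 0.61 in mKO, adjusted p = 0.972). Mtfr1, a regulator of mitochondrial fission, stood at 35.8 and 37.5 in WT ExE, 8.72 and 2.59 in mHet ExE, and 4.23 and 3.91 in mKO ExE, against 24.2 to 40.3 in epiblast (-3.02 ± 0.62 in mKO, adjusted p = 0.972). None of these passed the test.

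In mHet against WT the smallest p belonged to Id1, with a difference of differences of -5.07 ± 0.81 (adjusted p = 0.294), carried by the epiblast values given above. Chac1, which degrades glutathione, stood at 0.273 and 0.767 FPKM in WT epiblast, 59.9 and 27.7 in mHet epiblast, and 19.1 and 1.83 in mKO epiblast (-6.05 ± 1.06, adjusted p = 0.342). Lefty1, the NODAL antagonist, stood at 3.87 and 0.556 in WT epiblast, 33.6 and 24.8 in mHet epiblast, and 1.16 and 3.12 in mKO epiblast (-3.33 ± 0.66, adjusted p = 0.643). For these 3 genes the mHet epiblast libraries stood above all others. The remaining genes named by the same rule were Snord1c (3.29), Tagln3 (1.55) and Irgm1 (-2.19) for mKO and Snord82 (2.86) and Thcytx (2.02) for mHet, none of which passed the threshold.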

How the data were processed

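Values were the authors' deposited FPKM for 23664 genes in 12 libraries, per the file headers. The submitters' processing notes name HISAT2 2.2.1, HTSeq 0.6.0 and Trim Galore 0.4.2, and the builds mm9 and hg19 without a role. The tool behind the FPKM, its annotation and its use of strand were not given in the sources used here. Epiblast columns carry the numbers 3 and 4, which no title has, and were therefore tied to a group but to no single sample.

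Genes that reached 1 FPKM in 2 or more libraries (11028) were fitted on log2(FPKM + 1) with limma 3.58.1 under R 4.3.3, using lmFit and eBayes with a mean-variance trend. The main model had tissue and genotype as terms. WT libraries were also fitted alone, and a fit of 6 group means gave the contrasts within mHet and mKO and the change of the tissue difference between genotypes. Tests were two-sided, with Benjamini-Hochberg adjustment across all 11028 genes and a threshold of 0.05. The code was tested on simulated data.

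Depth is not known: the commonest ratio between libraries of values under 0.5 FPKM was shared by 1.73% of genes at most, which shows no unit of 1 read, and intervals from counts cannot be made. Libraries were called male where Y-linked transcripts summed to 10 FPKM or more.

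Members and lists were chosen with earlier results of these data known. Named genes were up to 15 in each direction with the largest difference among those past the threshold, at a mean of 2 FPKM or more in the higher tissue, without overlap and without clone-type names, and for interactions the 3 of smallest p on either side. Members of 28 gene lists could be named too. Some genes that these rules name are not reported here. Of 529 list symbols 528 were found, 3 of them through RefSeq synonyms. Chromosomes came by name from RefSeq for 10842 genes (98.3%), and start-site windows (GRCm38.p6, a build other than those of the notes) for 8542 (77.5%).

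Alternatives were a pseudocount of 0.1, other filters, other scaling, eBayes without the trend, sex as a term, and leaving out each library. Leaving out pairs of libraries with transcripts of the other tissue or much Rn45s was chosen after seeing the data.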

Additional observations from a re-analysis of the deposited data

Results flagged for a closer look

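In 86 groups of 6 libraries (43 genes in each tissue), the highest or lowest library was checked for a gap to the others beyond Dixon's limit. Chance flags about 1 in 20 groups, or 4.3 here, if groups are independent and values normal. The groups here share libraries and some hold values at 0, so 4.3 is no firm yardstick. In all, 10 stood apart. Of these, 5 were in WT ExE 1, the ExE library with the most epiblast transcripts: Fgf5 at 5.65 FPKM, Tdgf1 at 45.1, Fgf15 at 1.94, Trh at 1.57 and Nanog at 12.6. WT ExE 2 stood apart for Crabp2 at 1.60 FPKM. In mKO ExE 2, the library with visceral endoderm transcripts, Krt19 stood at 95.4 and Ets2 at 52.5 FPKM. Igf2 stood at 103.1 FPKM in mHet ExE 2. Cdx2 stood at 0.270 FPKM in mKO epiblast 3, the epiblast library with the most ExE transcripts. The source of these values was not tested.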

How the results depend on the processing

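The tissue comparison over all genotypes gave between 3120 and 4545 genes under its alternatives, against 3997, and between 3399 and 4424 when 1 library was left out. The WT count of 2422 was 339 with no filter on low values, where more genes were tested, 1343 when taken from the fit of 6 group means, 486 without WT ExE 1 and mKO epiblast 3, and 0 to 754 with 1 library left out. The mHet count of 1642 ran from 828 to 3848 with 1 library left out and was 1048 without mHet epiblast 4 and mKO epiblast 3. The mKO count of 1802 ran from 951 to 2833, and was 1011 without WT ExE 1 and mKO epiblast 3 and 1121 without mHet epiblast 4 and mKO epiblast 3. For mKO minus WT, the count of 0 became 1 with a pseudocount of 0.1, 21 with no filter, 6 without mHet ExE 2 and mKO ExE 1, and 0 to 5 with 1 library left out. For mHet minus WT it became 32 with no filter and 0 to 576 with 1 library left out. Apart from fewer libraries or more genes, the cause of these moves was not tested. Higher genes were 42.1% of the calls over all genotypes, 47.2% after median ratio scaling and 53.1% without mHet ExE 2 and mKO ExE 1. Of 5334 values of 234 called genes under the alternatives, 282 no longer passed, over 42 genes, and 0 changed sign. No paired analysis was possible because no label ties an epiblast column to an ExE column, and a pairing was not taken from measured values. Sex called from Y-linked transcripts was the same in epiblast 3 and ExE 1 and in epiblast 4 and ExE 2 of each genotype, with all mHet libraries female. Unknown depth limits what can be said of genes near 1 FPKM.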
